A study of Mus musculus with 18 samples.

Results

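The genes described here are 35 mouse genes of the interferon response and of antigen presentation by major histocompatibility complex (MHC) class I: genes switched on by interferon, sensors of viral RNA and the class I machinery. They were listed by name, and each was read from the probe set that the platform annotation ties to that symbol alone, taking the probe set with the highest mean over all 18 arrays where a gene had several. Of the 35 genes, 32 had such a probe set, among 22180 genes in all, and 31 passed the filter on low values, among 19016 genes tested. Gbp2 and H2-D1 lay only on probe sets that carry a second gene symbol, no probe set was listed for Ifi44, and Mx1, which measured a mean of 3.36 over the arrays, did not pass the filter. Of the 31 tested genes, 29 were above the filter's level on all 18 arrays, and the exceptions were Oasl2 on 12 arrays and Isg15 on 14.

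The study examined neurospheres, free-floating cultures of mouse neural stem and progenitor cells, labelled female, on Affymetrix mouse gene arrays. The cultures were wild type, knockout for Pcdh19 (a cell adhesion protocadherin) or a mosaic, which the labels describe as wild type and knockout cells mixed together. Each was sampled at day 0, as undifferentiated neurospheres, and at day 4 of differentiation, with 3 arrays in each of the 6 groups. The allele, the mouse strain, the age of the donors, the proportions of the mix and the medium are not stated in the sources used here. The replicates are called technical, so all p-values here measure only the spread between these samples.

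Cells detect viral RNA in the cytoplasm with helicases such as RIG-I and MDA5, which signal through MAVS to transcription factors that switch on interferon genes. Secreted interferon binds its receptor and, through JAK kinases and STAT and IRF proteins, induces a large set of genes whose products block viral replication, feed back on the pathway or load peptides on MHC class I molecules. Neural stem cells are known to hold a part of this set at a basal level without infection, and MHC class I is kept low in most resting neural cells.

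Values are log2 signals per probe set, and a level of one gene cannot be set against that of another because probes differ in response. Arrays of a group correlated at 0.981 to 0.986, and no detection calls were used here. Pcdh19 measured 6.78 ± 0.11 in wild type, 5.51 ± 0.15 in knockout and 6.0 ± 0.33 in the mosaic at day 0, and 6.90 ± 0.09, 5.70 ± 0.17 and 6.38 ± 0.79 at day 4 (SD, n = 3), and all 3 knockout arrays lay below all 3 wild type arrays at both days (adjusted p = 0.855 and 0.195 by limma). The 3 mosaic day 4 arrays ran from 5.52 to 7.09, with 1 below every knockout day 4 array (5.53 to 5.86) and 1 above every wild type day 4 array (6.81 to 6.98). Where leaving out 1 of these mosaic arrays ended a member's call, the value is given beside that call. Whether the Pcdh19 probes lie in the deleted part is not known here. The mean over 8 neural stem markers, chosen for the labelled cell type, ran from 10.32 to 10.49 across the day 0 arrays. Without detection calls this mean describes these probe sets and does not identify the cell type. Over differentiation 5 of 5 tested oligodendrocyte markers rose in each culture, with median log2 fold changes of 3.08 to 3.55, and of 8 neural stem markers 4 fell in each. In the same neural stem list 1 marker rose in the wild type, 2 did so in the knockout and 1 did in the mosaic, and 2 rose and 5 fell on average. In these bulk samples fewer cells of a type and less RNA per cell cannot be told apart.

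The first question was how the genes behaved over 4 days of differentiation. A subset of them fell in every culture: the RNA sensors Ifih1 and Ddx58, the transcription factor Irf1, the guanylate-binding protein Gbp7 and the membrane restriction factor Ifitm3. Most of the classical effectors, including Ifit1, Ifit2, Ifit3, Oas2, Mx2 and Rsad2, did not pass the test in any culture. Ifitm3 changed most, to 3.71-fold lower in wild type, 3.44-fold in knockout and 4.85-fold in the mosaic. Ifi35 and the immunoproteasome subunit Psmb8 rose, in wild type cultures.

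At an adjusted p under 0.05 (limma with Benjamini-Hochberg adjustment over the 19016 genes), 2 of the 31 genes rose and 6 fell in wild type cultures, where 17.2% of all genes tested rose and 16.3% fell (33.6% in either direction). The fallen share of the interferon genes there, 19.4%, lay near that of all genes. In knockout cultures 0 rose and 11 fell, or 35.5%, where 15.0% of all genes rose and 12.4% fell (27.4% in either direction). In mosaic cultures 0 rose and 13 fell, or 41.9%, where 14.4% of all genes rose and 11.9% fell (26.2% in either direction). Averaged over the 3 cultures, a comparison with a smaller standard error, 14 of 31 fell and 0 rose, where 20.7% of all genes fell and 24.9% rose (45.6% in either direction). In knockout cultures the count was 7 when only the 6 arrays of that comparison entered the fit. The share of all genes called in that fit is not given here, so the 7 cannot be set against the shares above.

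The median log2 fold change over the 31 genes was -0.21 in wild type, -0.25 in knockout and -0.24 in the mosaic cultures, against 0.09, 0.02 and 0.02 over all genes tested. Values below 0 were found for 21, 28 and 24 of the 31 genes in these cultures. Of all genes tested, more lay above 0 than below it in each culture, since their medians were above 0. Arrays of the 2 days did not overlap, with day 4 below day 0, for 14 genes in wild type, 11 in knockout and 14 in the mosaic ones, where 21.9%, 17.1% and 17.8% of all genes did the same. Day 4 lay wholly above day 0 for 4 genes in wild type and for 0 in the others, where 27.1%, 22.1% and 20.3% of all genes did so. Counted gene by gene, 5 of 31 fell in all 3 cultures, as 8.93% of all genes did, and 14 fell in at least 1 culture, as 19.4% of all genes did. The test was passed in no culture by 15 of the 31, and the share of all genes that did the same was not counted.

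**Figure D1:**
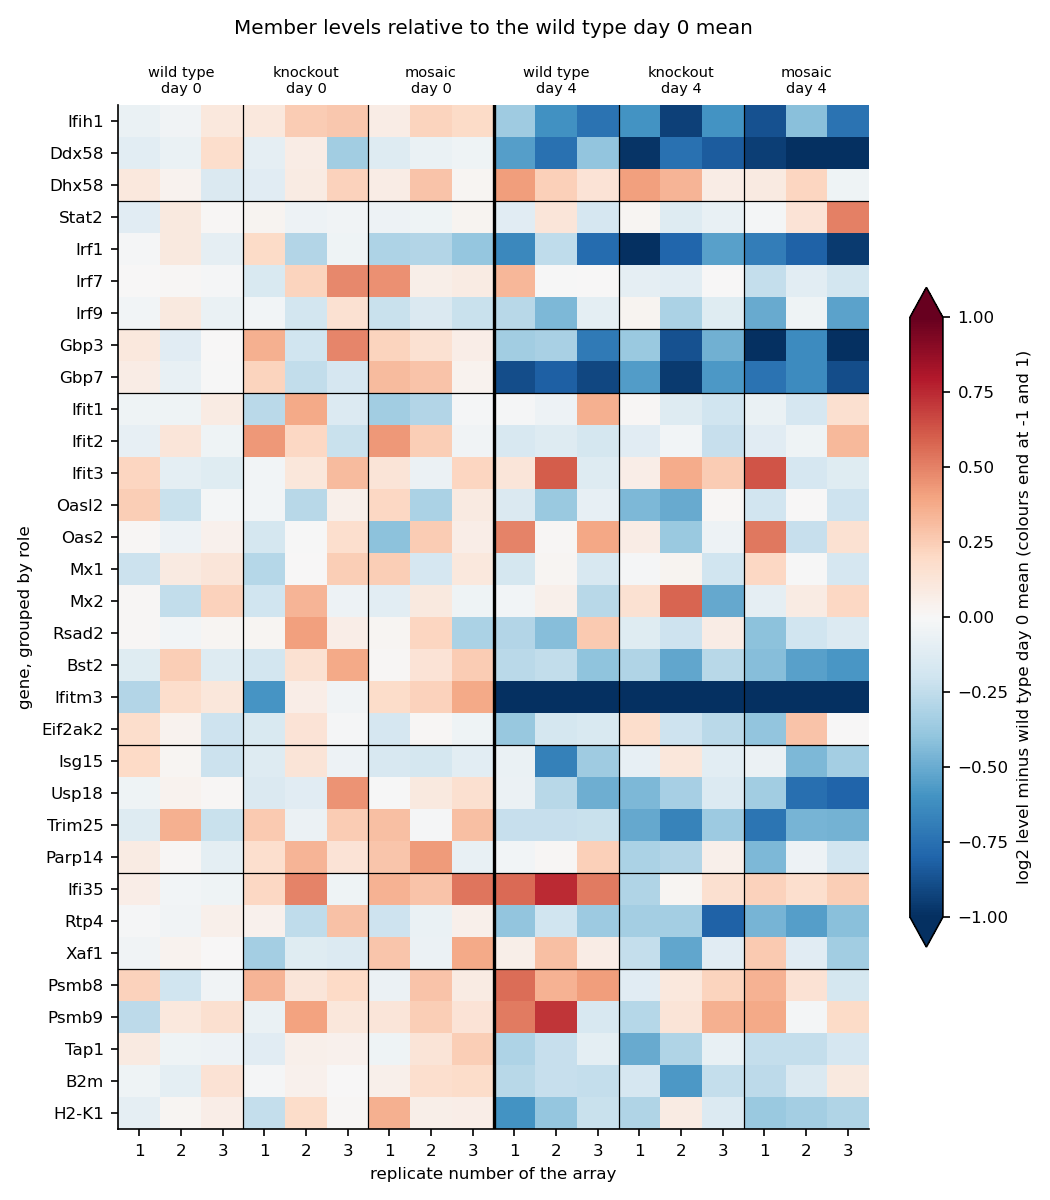
Levels of the 32 genes with a probe set, as the log2 level on each array minus the wild type day 0 mean of that gene, with genes in rows grouped by role and the 18 arrays in columns by group and replicate. Ifitm3, Gbp7, Ddx58 and Ifih1 are blue on all 9 day 4 arrays, while most rows of the antiviral effectors carry no shared block of colour.

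**Figure D2:**
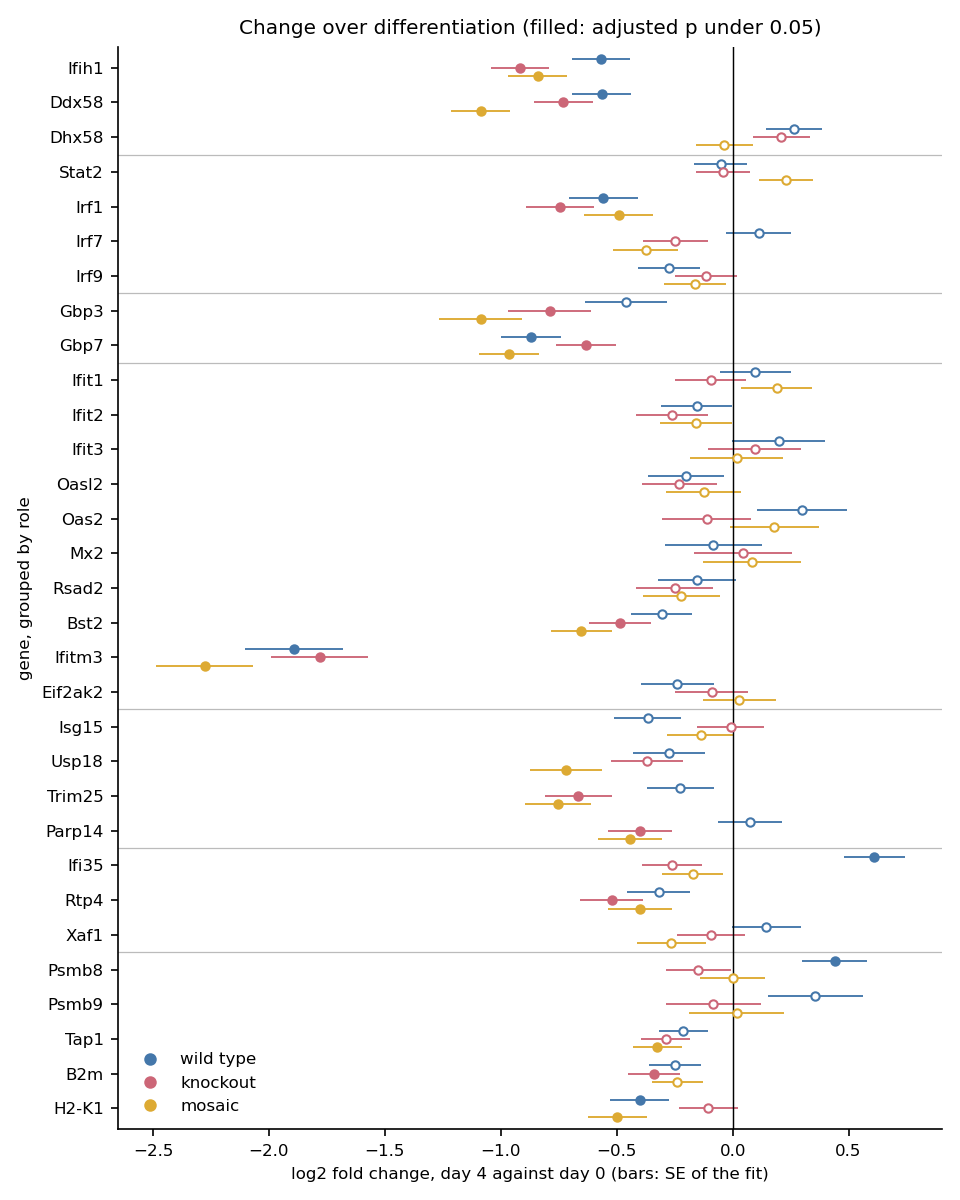
Log2 fold change of day 4 against day 0 for the 31 tested genes in wild type (blue), knockout (red) and mosaic (yellow) cultures, with bars for the standard error of the limma fit and filled points for an adjusted p under 0.05. Ifitm3 lies at -1.78 to -2.28, and Ifi35 and Psmb8 are the only genes with a filled point above 0.

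The promoters of genes that fell and of genes that did not are set side by side here because many interferon-induced genes share the interferon-stimulated response element (ISRE), a DNA sequence bound by IRF proteins. Sequences are from RefSeq, build GRCm38.p6, and run from 250 bases before the annotated start to 50 after it. The table held 28 of the 35 genes. The ISRE was searched as a pair of GAAA repeats with any 2 bases between them, on either strand. It was found in 14 of these 28 genes (50%), against 1079 of all 27025 genes (3.99%). By promoter it was found in 14 of their 33 (42.4%), against 1131 of all 32851 (3.44%). A gamma-activated sequence, TTCNNNGAA, was found in 8 of 28 genes (28.6%), against 9.55% of all genes, and in 24.2% of their promoters, against 8.3% of all promoters. ISRE matches can overlap one another where the repeat runs on. A match is a description of the letters in this window and not a measured binding site.

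Shown 5′ to 3′ in the direction of the gene, with the matches in capitals, the first 6 stretches belong to genes that fell in the average of the cultures and the last 3 to genes that did not pass the test there.
Ifitm3: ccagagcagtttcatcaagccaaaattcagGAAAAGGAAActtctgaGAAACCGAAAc
Gbp3: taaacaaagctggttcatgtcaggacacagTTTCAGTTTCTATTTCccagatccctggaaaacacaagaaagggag
Gbp7: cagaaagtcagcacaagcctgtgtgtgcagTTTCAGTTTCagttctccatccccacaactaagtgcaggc
Ddx58: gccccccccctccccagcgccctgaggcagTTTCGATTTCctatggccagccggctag
Bst2: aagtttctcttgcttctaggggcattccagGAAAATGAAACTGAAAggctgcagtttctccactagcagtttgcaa
B2m: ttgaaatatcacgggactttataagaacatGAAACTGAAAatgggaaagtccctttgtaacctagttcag
Ifit1: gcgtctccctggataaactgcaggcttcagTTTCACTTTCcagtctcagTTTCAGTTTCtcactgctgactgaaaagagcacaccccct
Ifit3: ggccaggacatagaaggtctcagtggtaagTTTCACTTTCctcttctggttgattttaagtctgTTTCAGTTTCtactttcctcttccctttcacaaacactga
Isg15: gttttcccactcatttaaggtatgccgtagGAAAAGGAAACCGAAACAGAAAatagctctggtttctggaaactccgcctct
The stretch of Ifitm3 lies at chr7:141010715-141010772, minus strand, and spans the annotated start. Those of Gbp3 (chr3:142559969-142560044, plus strand) and Gbp7 (chr3:142530253-142530322, plus strand) reach from upstream to the annotated start or just short of it. The Ddx58 stretch is at chr4:40239796-40239853, minus strand, that of Bst2 at chr8:71537557-71537632, minus strand and that of B2m at chr2:122147518-122147587, plus strand. Ifit1 (chr19:34640755-34640843, plus strand), Ifit3 (chr19:34583343-34583446, plus strand) and Isg15 (chr4:156200845-156200926, minus strand) carry 2, 2 and 3 matches, as many as or more than any of the 6 genes that fell. Of the tested genes with a promoter in the table, 7 of 13 with an ISRE match and 4 of 12 without it fell in the average of the cultures. For TTCNNNGAA the counts were 4 of 8 with it and 7 of 17 without. Gene number is small in each of these counts and no test was made.

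**Figure D3:**
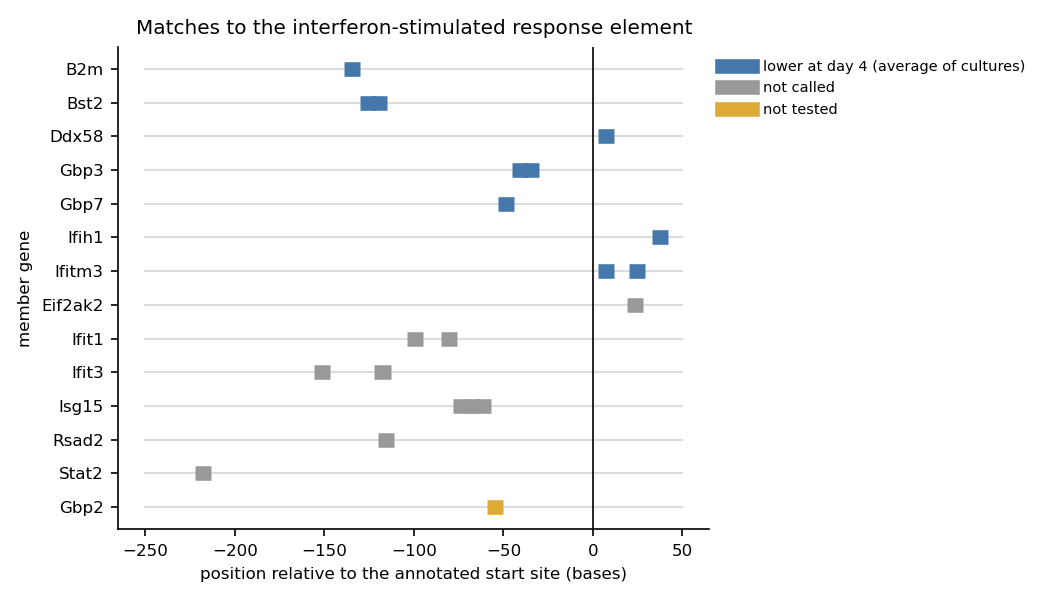
Position of each ISRE match on the promoters of the 14 genes that hold one, with the distance from the annotated start site in bases on the horizontal axis and 1 gene per line. Blue marks the 7 genes that fell in the average of the 3 cultures, grey those tested and not called and yellow Gbp2, which was not tested. Matches lie on both sides of the start among the blue genes and among the grey ones.

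Among the RNA sensors, Ifih1 (MDA5, which binds long double-stranded RNA) and Ddx58 (RIG-I, which binds short RNA with a 5′ triphosphate) fell in all 3 cultures, and Dhx58 (LGP2, a helicase that regulates them) did not pass the test. Ifih1 measured 4.87, 4.90 and 5.04 at day 0 and 4.58, 4.33 and 4.20 at day 4 on the wild type arrays, in order of replicate number as for all values below. On knockout arrays Ifih1 stood at 5.04, 5.19 and 5.20 at day 0 and 4.34, 4.0 and 4.34 at day 4. Mosaic Ifih1 levels were 5.01, 5.16 and 5.13 at day 0 and 4.07, 4.51 and 4.19 at day 4. All 9 day 4 values lay below all 9 day 0 values. The log2 fold change of Ifih1 was -0.57 (SE 0.13, adjusted p = 0.00238) in wild type, -0.92 (SE 0.13, adjusted p = 3.36e-05) in knockout and -0.84 (SE 0.13, adjusted p = 7.74e-05) in mosaic cultures.

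Ddx58 measured 5.94, 5.98 and 6.22 at day 0 and 5.50, 5.31 and 5.65 at day 4 on the wild type arrays. On knockout arrays Ddx58 stood at 5.96, 6.12 and 5.71 at day 0 and 5.07, 5.31 and 5.22 at day 4. Mosaic Ddx58 levels were 5.92, 5.98 and 6.01 at day 0 and 5.11, 4.75 and 4.78 at day 4. The day 4 arrays were again below every day 0 array, and the lowest values, 4.75 and 4.78, were both mosaic. Ddx58 gave log2 fold changes of -0.56 (SE 0.13, adjusted p = 0.00266) in wild type, -0.73 (SE 0.13, adjusted p = 3.33e-04) in knockout and -1.09 (SE 0.13, adjusted p = 6.33e-06) in mosaic cultures by limma. Dhx58 gave log2 fold changes of 0.26 (SE 0.12, adjusted p = 0.103), 0.21 (SE 0.12, adjusted p = 0.234) and -0.04 (SE 0.12, adjusted p = 0.879) in the same order. The day 4 arrays of Dhx58 lay wholly above those of day 0 in wild type cultures and overlapped them in the others, unlike the arrays of Ifih1 and Ddx58. Every call for Ifih1 and Ddx58 held under each of 28 alternatives, of which 18 left out 1 array.

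Of 4 transcription factors, Irf1, an early interferon-gamma target that activates class I and guanylate-binding protein genes, fell in each culture, while Stat2 and Irf9, partners in the complex that binds the ISRE, and Irf7, the amplifier of interferon genes, did not pass the test. Irf1 measured 5.87, 5.98 and 5.79 at day 0 and 5.23, 5.62 and 5.11 at day 4 on the wild type arrays. On knockout arrays Irf1 stood at 6.07, 5.58 and 5.84 at day 0 and 4.84, 5.09 and 5.33 at day 4. Mosaic Irf1 levels were 5.57, 5.58 and 5.49 at day 0 and 5.19, 5.07 and 4.92 at day 4. Within each culture the days did not overlap. Across cultures they did, since wild type replicate 2 at day 4 lay above all 3 mosaic arrays of day 0. Irf1 gave log2 fold changes of -0.56 (SE 0.15, adjusted p = 0.00793) in wild type, -0.74 (SE 0.15, adjusted p = 0.00103) in knockout and -0.49 (SE 0.15, adjusted p = 0.0198) in mosaic cultures. The mosaic call was lost without mosaic day 0 replicate 1 (adjusted p = 0.0548), day 0 replicate 2 (adjusted p = 0.0586) or day 4 replicate 3 (adjusted p = 0.0793).

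Stat2 differed by -0.05, -0.04 and 0.23 in wild type, knockout and mosaic cultures, and replicate 3 of mosaic day 4 was the highest of the 18 arrays at 7.27. Without mosaic day 4 replicate 1, Stat2 was called higher there (0.34, adjusted p = 0.0398). Irf9 gave -0.27, -0.12 and -0.16, with an adjusted p of 0.0602 for the average over the cultures. Irf7 stood at 0.11 in wild type, -0.25 in knockout and -0.38 in the mosaic cultures. Without knockout day 0 replicate 1, Irf7 passed the test in knockout (-0.41, adjusted p = 0.0298) and in mosaic cultures (adjusted p = 0.025), and the mosaic call also appeared without knockout day 0 replicate 3 (adjusted p = 0.0321) or wild type day 4 replicate 1 (adjusted p = 0.0474).

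The guanylate-binding proteins are interferon-induced GTPases that coat intracellular pathogens and their compartments. Both measured members fell. Gbp7 measured 7.26, 7.11 and 7.18 at day 0 and 6.30, 6.36 and 6.27 at day 4 on the wild type arrays. On knockout arrays Gbp7 stood at 7.40, 6.93 and 7.01 at day 0 and 6.62, 6.22 and 6.61 at day 4. Mosaic Gbp7 levels were 7.50, 7.46 and 7.22 at day 0 and 6.44, 6.55 and 6.29 at day 4. No array of day 4 reached the level of any day 0 array. Gbp7 gave log2 fold changes of -0.87 (SE 0.13, adjusted p = 7.91e-05) in wild type, -0.63 (SE 0.13, adjusted p = 0.00141) in knockout and -0.97 (SE 0.13, adjusted p = 2.69e-05) in mosaic cultures.

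Gbp3 measured 5.76, 5.54 and 5.66 at day 0 and 5.31, 5.33 and 4.95 at day 4 on the wild type arrays. On knockout arrays Gbp3 stood at 6.01, 5.45 and 6.14 at day 0 and 5.28, 4.78 and 5.17 at day 4. Mosaic Gbp3 levels were 5.88, 5.81 and 5.72 at day 0 and 4.64, 5.03 and 4.47 at day 4. Days did not overlap within any culture, and all 3 mosaic arrays of day 4 lay between 4.47 and 5.03. Gbp3 fell by 0.79 on the log2 scale in knockout (SE 0.18, adjusted p = 0.00297) and by 1.09 in mosaic cultures (SE 0.18, adjusted p = 1.96e-04). The wild type value was -0.46 (SE 0.18, adjusted p = 0.057), and it passed without any 1 of 4 arrays of the other cultures: knockout day 0 replicate 2 (adjusted p = 0.028) or 3 (0.0484), knockout day 4 replicate 2 (0.0466) and mosaic day 4 replicate 2 (0.0438). Gbp3 and Gbp7 both lie on chromosome 3 and belong to a family of similar sequence, and cross-hybridisation between family members was not tested. The stretches printed for them share the run TTTCAGTTTC, a form of the searched ISRE that also stands in the printed stretches of Ifit1 and Ifit3.

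Ifitm3 blocks the entry of enveloped viruses at endosomal membranes and is also used as a marker of stem cells. Ifitm3 measured 8.07, 8.54 and 8.48 at day 0 and 6.38, 6.34 and 6.69 at day 4 on the wild type arrays. On knockout arrays Ifitm3 stood at 7.77, 8.43 and 8.33 at day 0 and 5.96, 6.56 and 6.66 at day 4. Mosaic Ifitm3 levels were 8.54, 8.59 and 8.74 at day 0 and 6.22, 6.74 and 6.09 at day 4. All 9 day 4 values lay below all 9 day 0 values, with a gap of more than 1 log2 unit between the highest of the former and the lowest of the latter. Ifitm3 gave log2 fold changes of -1.89 (SE 0.21, adjusted p = 3.84e-06) in wild type, -1.78 (SE 0.21, adjusted p = 7.10e-06) in knockout and -2.28 (SE 0.21, adjusted p = 5.63e-07) in mosaic cultures. None of the 3 differences between the cultures in this change passed, at 0.11 (SE 0.30, adjusted p = 0.934) for knockout minus wild type, -0.39 (SE 0.30, adjusted p = 0.605) for mosaic minus wild type and -0.50 (SE 0.30, adjusted p = 0.999) for mosaic minus knockout.

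Bst2 (tetherin, which holds budding virions on the cell surface) fell in knockout and mosaic cultures. Bst2 measured 5.02, 5.39 and 5.01 at day 0 and 4.88, 4.89 and 4.74 at day 4 on the wild type arrays. On knockout arrays Bst2 stood at 4.96, 5.29 and 5.52 at day 0 and 4.84, 4.62 and 4.86 at day 4. Mosaic Bst2 levels were 5.15, 5.28 and 5.40 at day 0 and 4.72, 4.60 and 4.56 at day 4. The days did not overlap within any culture, with the smallest gaps in wild type and knockout. Bst2 gave log2 fold changes of -0.48 (SE 0.13, adjusted p = 0.0113) in knockout and -0.65 (SE 0.13, adjusted p = 0.00132) in mosaic cultures, against -0.31 (SE 0.13, adjusted p = 0.086) in wild type. The knockout call was lost without knockout day 0 replicate 3 (adjusted p = 0.0689) or day 4 replicate 2 (adjusted p = 0.0595), and with only the arrays compared (adjusted p = 0.0533).

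The other 8 tested effectors did not pass the test in any culture. Ifit1, Ifit2 and Ifit3 bind foreign RNA and limit its translation, and Ifit1 gave 0.10, -0.10 and 0.19 in wild type, knockout and mosaic cultures. Ifit3 gave 0.20, 0.10 and 0.02, and its mosaic day 4 arrays spread from 5.45 to 6.26. The arrays of both days overlapped for Ifit1 and Ifit3 in each culture, and the standard errors of 0.15 and 0.20 were of the size of these values or larger. Ifit2 gave -0.15, -0.26 and -0.16, and it passed in knockout cultures without knockout day 0 replicate 3 (-0.44, adjusted p = 0.0353).

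Oas2, which makes the second messenger that activates RNase L, gave 0.30, -0.11 and 0.18 in the same order of cultures, and its relative Oasl2 gave -0.20, -0.23 and -0.12. Mx2, a dynamin-like GTPase, stood at -0.08, 0.05 and 0.08. The untested Mx1 had group means between 3.27 and 3.43. Rsad2 (viperin, an enzyme that makes a chain-terminating nucleotide) gave -0.15, -0.25 and -0.22, and Eif2ak2 (PKR, the kinase that halts translation on double-stranded RNA) gave -0.24, -0.09 and 0.03. For all 5 of these tested genes the 2 days overlapped in each culture.

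**Figure D4:**
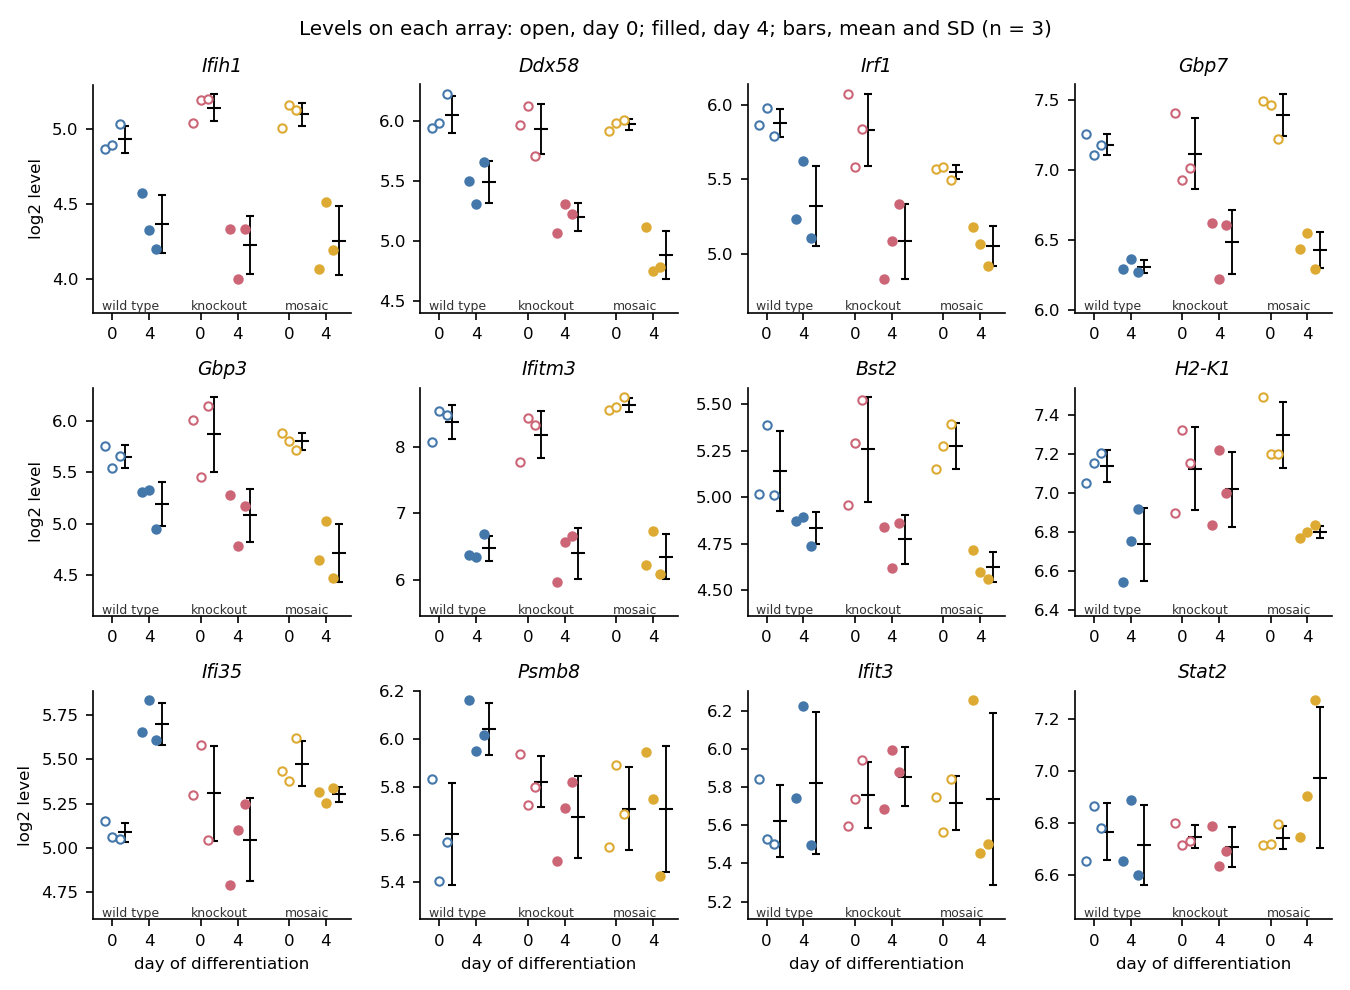
Log2 level on each array for 12 of the genes, with open points for day 0, filled points for day 4, cultures by colour along the horizontal axis and bars for the mean and SD of 3 arrays; each panel has its own vertical range. The 2 days are separate in all 3 cultures for Ifih1, Ddx58, Irf1, Gbp7, Gbp3, Ifitm3 and Bst2, and overlap for Ifit3 and Stat2.

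Among the ubiquitin-like protein Isg15 and the genes grouped with it, Trim25 and Parp14 fell in knockout and mosaic cultures and Usp18 in mosaic cultures. Trim25, a ligase that ubiquitinates RIG-I, gave log2 fold changes of -0.67 (SE 0.14, adjusted p = 0.00201) in knockout and -0.75 (SE 0.14, adjusted p = 7.31e-04) in mosaic cultures and of -0.23 (SE 0.14, adjusted p = 0.236) in wild type. The wild type day 0 arrays of Trim25 were 4.44, 4.93 and 4.35 and its day 4 arrays 4.34, 4.35 and 4.35, so the days overlapped there. In knockout cultures 4.83, 4.52 and 4.82 at day 0 stood above 4.06, 3.90 and 4.21 at day 4, and in mosaic cultures 4.88, 4.56 and 4.87 stood above 3.84, 4.11 and 4.10. Both calls held under every alternative that gave a value for Trim25.

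Usp18, which removes Isg15 from proteins and blocks the interferon receptor, gave log2 fold changes of -0.72 (SE 0.16, adjusted p = 0.00219) in mosaic cultures, where it measured 5.11, 5.21 and 5.28 at day 0 and 4.77, 4.36 and 4.32 at day 4. Its values in wild type and knockout were -0.27 and -0.37 (adjusted p = 0.188 and 0.0943). Parp14, a mono-ADP-ribosyltransferase of the interferon response, gave log2 fold changes of -0.40 (SE 0.14, adjusted p = 0.0403) in knockout and -0.44 (SE 0.14, adjusted p = 0.0249) in mosaic cultures, with 0.07 in wild type. In knockout it measured 4.61, 4.78 and 4.58 at day 0 and 4.12, 4.15 and 4.49 at day 4, and in mosaic 4.72, 4.87 and 4.36 at day 0 and 3.99, 4.39 and 4.25 at day 4, where the days overlapped. The knockout call for Parp14 was at the edge of the threshold and was lost without any 1 of the arrays knockout day 0 replicate 1 (adjusted p = 0.0701), 2 (0.141) or 3 (0.0555) and day 4 replicate 1 (0.136) or 2 (0.136), and the mosaic call without day 0 replicate 1 (0.0813) or 2 (0.128) or day 4 replicate 1 (0.119). The knockout call for Parp14 was also lost after quantile normalization (0.0575), with a common array median (0.058), with no filter on low values (0.0503), with a variance trend and robust estimation (0.0563) and with only the groups compared (0.0545), and the mosaic call with only the groups compared (0.0881).

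Isg15 itself, which carries 3 overlapping matches in the stretch printed above, gave -0.37 in wild type (SE 0.14, adjusted p = 0.0601), -0.01 in knockout and -0.14 in mosaic cultures. In wild type it measured 4.09, 3.91 and 3.68 at day 0 and 3.83, 3.22 and 3.54 at day 4, so the days overlapped. It passed there without wild type day 0 replicate 3 (-0.47, adjusted p = 0.0328), wild type day 4 replicate 1 (-0.52, adjusted p = 0.014) or mosaic day 4 replicate 1 (adjusted p = 0.0489).

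Rtp4, a chaperone of membrane receptors induced by interferon, gave log2 fold changes of -0.52 (SE 0.14, adjusted p = 0.00825) in knockout, -0.40 (SE 0.14, adjusted p = 0.0395) in mosaic and -0.32 (SE 0.14, adjusted p = 0.0831) in wild type cultures. The knockout arrays measured 5.57, 5.27 and 5.83 at day 0 and 5.19, 5.19 and 4.72 at day 4, with replicate 3 the lowest at day 4. The knockout call ended without knockout day 0 replicate 3 (adjusted p = 0.0526) or day 4 replicate 3 (0.0535), and the mosaic call without mosaic day 0 replicate 2 (0.0905) or 3 (0.138) or any 1 of the day 4 replicates 1 to 3 (0.0754, 0.116 and 0.0607). The knockout call for Rtp4 was also lost with only the groups compared (0.0712), and the mosaic call after quantile normalization (0.0799), with a common array median (0.0784) and with the replicate block (0.0556). Wild type passed without knockout day 4 replicate 3 (0.0457). Xaf1, a pro-apoptotic interferon target, was not called in any culture, at 0.14, -0.09 and -0.26, and passed in mosaic without day 4 replicate 1 (-0.43, adjusted p = 0.0394).

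Ifi35, an interferon-induced leucine zipper protein, rose in wild type cultures. Ifi35 measured 5.15, 5.06 and 5.05 at day 0 and 5.65, 5.83 and 5.61 at day 4 on the wild type arrays. On knockout arrays Ifi35 stood at 5.30, 5.58 and 5.05 at day 0 and 4.79, 5.10 and 5.25 at day 4. Mosaic Ifi35 levels were 5.43, 5.38 and 5.62 at day 0 and 5.32, 5.26 and 5.34 at day 4. The wild type day 4 arrays stood above all wild type and knockout day 0 arrays, and in mosaic cultures day 4 lay below day 0 without overlap. Ifi35 gave log2 fold changes of 0.61 (SE 0.13, adjusted p = 0.00173) in wild type, -0.26 (SE 0.13, adjusted p = 0.161) in knockout and -0.17 (SE 0.13, adjusted p = 0.384) in mosaic cultures. Without knockout day 0 replicate 3 the knockout value passed too, as a fall (-0.39, adjusted p = 0.0375). A second probe set for Ifi35 gave 0.05, -0.04 and -0.18 in wild type, knockout and mosaic cultures, so the rise was seen on 1 of its 2 probe sets.

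In antigen presentation, the class I heavy chain H2-K1, its partner B2m and the peptide transporter Tap1 fell in some cultures, and the immunoproteasome subunits Psmb8 and Psmb9, which cut peptides for class I molecules, did not fall in any. H2-K1 measured 7.05, 7.16 and 7.21 at day 0 and 6.54, 6.75 and 6.92 at day 4 on the wild type arrays. On knockout arrays H2-K1 stood at 6.90, 7.32 and 7.15 at day 0 and 6.84, 7.22 and 7.0 at day 4. Mosaic H2-K1 levels were 7.49, 7.20 and 7.20 at day 0 and 6.77, 6.80 and 6.83 at day 4. Days overlapped in knockout cultures and were separate in the others. H2-K1 gave log2 fold changes of -0.40 (SE 0.13, adjusted p = 0.0227) in wild type, -0.10 (SE 0.13, adjusted p = 0.615) in knockout and -0.50 (SE 0.13, adjusted p = 0.00732) in mosaic cultures. The wild type call was lost without wild type day 0 replicate 2 (adjusted p = 0.0593) or 3 (0.0746), or day 4 replicate 1 (0.114), and after quantile normalization (0.0796). Class I genes resemble one another in sequence, and how far the H2-K1 probes read relatives such as H2-D1 was not tested.

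B2m measured 10.59, 10.54 and 10.78 at day 0 and 10.36, 10.41 and 10.40 at day 4 in wild type cultures. It measured 10.62, 10.68 and 10.65 at day 0 and 10.47, 10.06 and 10.40 at day 4 in knockout and 10.69, 10.80 and 10.83 at day 0 and 10.37, 10.49 and 10.74 at day 4 in mosaic cultures, and the days overlapped in mosaic cultures alone. B2m gave log2 fold changes of -0.25 (SE 0.11, adjusted p = 0.0927), -0.34 (SE 0.11, adjusted p = 0.0303) and -0.24 (SE 0.11, adjusted p = 0.133) in wild type, knockout and mosaic cultures, and of -0.28 (SE 0.06, adjusted p = 0.00183) on average. The knockout call was lost without knockout day 0 replicate 1 (adjusted p = 0.0601), 2 (0.0833) or 3 (0.0651) or day 4 replicate 2 (0.179). It was also lost after quantile normalization (0.0514), with a common array median (0.0596) and with only the groups compared (0.0862). The mosaic value of B2m passed without day 4 replicate 3 (0.0397).

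Tap1 gave log2 fold changes of -0.21 (SE 0.11, adjusted p = 0.135), -0.29 (SE 0.11, adjusted p = 0.0547) and -0.32 (SE 0.11, adjusted p = 0.0324) in wild type, knockout and mosaic cultures, and of -0.28 (SE 0.06, adjusted p = 0.00136) on average. The mosaic call for Tap1 was lost without mosaic day 0 replicate 2 (adjusted p = 0.0849) or 3 (0.137) or any 1 of day 4 replicates 1 to 3 (0.0768, 0.0826 and 0.0515). It was also lost after quantile normalization (0.0647), with a common array median (0.0597) and with only the groups compared (0.0658). The knockout value passed without knockout day 4 replicate 3 (0.0118) or mosaic day 0 replicate 1 (0.0487). The averages for Tap1, B2m and H2-K1 were all below an adjusted p of 0.01, at 0.00136, 0.00183 and 0.00116.

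Psmb8 measured 5.83, 5.40 and 5.57 at day 0 and 6.16, 5.95 and 6.02 at day 4 on the wild type arrays. On knockout arrays Psmb8 stood at 5.94, 5.72 and 5.80 at day 0 and 5.49, 5.71 and 5.82 at day 4. Mosaic Psmb8 levels were 5.55, 5.89 and 5.68 at day 0 and 5.95, 5.75 and 5.42 at day 4. Only wild type arrays were separate between the days, with day 4 the higher. Psmb8 gave log2 fold changes of 0.44 (SE 0.14, adjusted p = 0.0234) in wild type, -0.15 (SE 0.14, adjusted p = 0.507) in knockout and 0.00 (SE 0.14, adjusted p = 0.999) in mosaic cultures. The wild type call was lost without wild type day 0 replicate 2 (adjusted p = 0.11) or 3 (0.0637) or day 4 replicate 1 (0.0901). Psmb9 gave 0.36 (SE 0.20, adjusted p = 0.19) in wild type, where replicates 1 and 2 were high at day 4 and replicate 3 was not, and -0.08 and 0.02 in the others. Without that wild type day 4 replicate 3 Psmb9 passed (0.61, adjusted p = 0.0204).

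In the average over the 3 cultures, 7 of the 17 genes that did not pass came past the threshold without 1 array. Each gene had 18 such fits, and the share of all genes that did the same was not counted. The list therefore describes only how near the threshold these genes lay. Over all genes tested, calls in the average ran from 8254 to 8674 over these fits, against 8670 with all arrays. Irf9 did so without knockout day 0 replicate 2 (adjusted p = 0.0392), wild type day 4 replicate 3 (0.0346), knockout day 4 replicate 1 (0.0376) or mosaic day 4 replicate 2 (0.00848). Irf7 did so without knockout day 0 replicate 1 (adjusted p = 0.0149) or wild type day 4 replicate 1 (0.0464), and Isg15 without the latter (0.0285). For Ifit2 the arrays were knockout day 0 replicate 3 (adjusted p = 0.0146), mosaic day 0 replicate 3 (0.0399) and mosaic day 4 replicate 3 (0.035), and for Rsad2 mosaic day 0 replicate 3 (0.0341) and wild type day 4 replicate 3 (0.0105). Oasl2 passed without mosaic day 0 replicate 2 (adjusted p = 0.0404) or knockout day 4 replicate 3 (0.0353). All 6 had values below 0, whereas Dhx58, which passed without knockout day 4 replicate 3 (adjusted p = 0.0426), was above 0.

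The second question was whether the genotypes differed at either day. No gene of the list passed in any of the 6 comparisons between genotypes, and 0% of all genes tested passed in each. At an unadjusted p under 0.05 at day 0, 0 of 31 differed between knockout and wild type (686 of all genes, 3.61%), 2 between mosaic and wild type (817, 4.3%) and 3 between mosaic and knockout (806, 4.24%). At day 4 the counts were 7 for knockout against wild type (2411 of all genes, 12.7%), 8 for mosaic against wild type (3026, 15.9%) and 2 for mosaic against knockout (1155, 6.07%). These unadjusted shares at day 4, 22.6% and 25.8% of the 31 genes against wild type, describe these arrays and are not calls. At day 0, arrays did not overlap for 2 higher and 1 lower of the 31 in knockout against wild type (4.76% and 4.44% of all genes), for 3 higher and 2 lower in mosaic against wild type (5.66% and 5.63%) and for 3 higher and 1 lower in mosaic against knockout (5.14% and 4.88%). At day 4 mosaic and knockout arrays were separate for 1 higher and 2 lower genes (4.24% and 4.44%).

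At day 4 the lowest adjusted p-values in the list were those of Ifi35 in knockout against wild type, -0.65 (SE 0.13, adjusted p = 0.187), and of Ddx58 in mosaic against wild type, -0.60 (SE 0.13, adjusted p = 0.123), by limma. From the levels above, Ddx58 measured 5.50, 5.31 and 5.65 in wild type, 5.07, 5.31 and 5.22 in knockout and 5.11, 4.75 and 4.78 in mosaic arrays at day 4. The mosaic and knockout arrays lay below the wild type arrays, although the highest knockout and the lowest wild type array are equal at 2 decimals, and mosaic overlapped knockout. Without mosaic day 4 replicate 1, Ddx58 passed as lower in mosaic than in wild type cultures (-0.72, adjusted p = 0.0301), in a fit where 256 genes of the whole table passed. In knockout against wild type at day 4, 5 genes had all arrays lower (Ddx58, Trim25, Ifi35, Xaf1 and Psmb8) and 0 all higher, where 8.27% and 8.56% of all genes did. For mosaic against wild type the counts were 8 lower (Ddx58, Irf7, Bst2, Trim25, Parp14, Ifi35, Rtp4 and Psmb8) and 1 higher (Ifit2), where 8.55% and 9.62% did. Both comparisons share the 3 wild type arrays, so their common members are not independent.

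The third question was whether the change over differentiation differed between cultures. None of the 31 genes passed in any of the 3 differences of differences, where 0% of all genes passed, and 4, 7 and 1 of the 31 had an unadjusted p under 0.05 for knockout minus wild type, mosaic minus wild type and mosaic minus knockout (1809, 2354 and 815 of all genes). Ifi35 gave the lowest adjusted p-values, with -0.87 (SE 0.18, adjusted p = 0.233) for knockout and -0.78 (SE 0.18, adjusted p = 0.256) for mosaic minus wild type. Psmb8 gave -0.59 (SE 0.20, adjusted p = 0.409) and -0.44 (SE 0.20, adjusted p = 0.39), and Parp14 -0.48 (SE 0.20, adjusted p = 0.47) and -0.52 (SE 0.20, adjusted p = 0.333). Trim25 and Gbp3, which passed in knockout and mosaic but not in wild type cultures, differed by -0.53 (SE 0.20, adjusted p = 0.34) and -0.63 (SE 0.25, adjusted p = 0.354) in mosaic minus wild type. The higher count of falls in knockout and mosaic cultures was not shown to differ from wild type for any single gene. The median standard error of such a difference was 0.178 over all genes.

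Other genes of the pathway, from lists that hold no member, were counted in the same fits. Over all genes tested, 17.2% rose and 16.3% fell in wild type, 15.0% and 12.4% in knockout and 14.4% and 11.9% in mosaic cultures. On average 24.9% rose and 20.7% fell. These shares are the background for each list count below, and the lists are small. Of 9 tested signalling genes and brakes, 2 rose and 3 fell in each culture. Socs3, which inhibits JAK kinases, fell by 1.83 on the log2 scale on average (adjusted p = 2.15e-09), Stat3 by 1.35 (adjusted p = 9.91e-12) and Jak2 by 0.82 (adjusted p = 2.98e-09), and the phosphatase gene Ptpn11 rose by 0.99 (adjusted p = 1.27e-09). These genes also act downstream of other cytokines and growth factors. Of 6 receptor chains, Il10rb fell in all 3 cultures, with -0.49 on average, Ifnar2 and Ifnar1 gave -0.21 and -0.13, and Ifngr2 rose by 0.28.

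Of 20 listed interferon genes 19 had a probe set, of which 11 passed the filter and 8, among them Ifnb1, did not. In wild type cultures 3 of the 11 rose, among them Ifnl2 (0.91) and Ifnl3 (0.55), while 0 rose in the others, and 1 fell in mosaic cultures. On average Ifna4 and Ifna1 gave -0.34 and -0.25. Of 11 tested sensing genes, 2 rose and 1 fell in wild type, 0 and 1 in knockout and 0 and 3 in mosaic cultures. Myd88, the adaptor of Toll-like receptors, fell in all 3 with -0.95 on average, Cgas gave -0.31, Tlr9 0.23 and Mavs, the adaptor of Ifih1 and Ddx58, 0.22.

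Of 29 tested induced genes outside the member list, 1 rose and 4 fell in wild type, 1 and 4 in knockout, 2 and 3 in mosaic cultures, and 1 rose and 8 fell on average. Their average median was -0.05, against 0.05 over all genes tested. Ifi27 rose by 0.49, Parp12 fell by 0.48, Nmi by 0.46 and Herc6 by 0.45 on the log2 scale. Of 16 other antigen presentation genes, 4 rose and 4 fell on average, which is 25% each way, near the 24.9% higher and 20.7% lower over all genes tested. Among them were the non-classical class I gene H2-T23 (-0.69), the trimming peptidase Erap1 (0.45) and the loading-complex chaperones Pdia3 (-0.35) and Calr (-0.33). Group means of H2-T23 were 3.94, 3.62 and 3.80 at day 0 in wild type, knockout and mosaic cultures. At day 4 they were 3.20, 3.04 and 3.05, below the filter's level on any array (3.57 to 3.67). H2-T23 thus passed the filter only through day 0 arrays, where it was high, and its fall is not used as support. Of 5 tested MHC class II genes only H2-Ab1 passed on average, at -0.52.

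**Figure D5:**
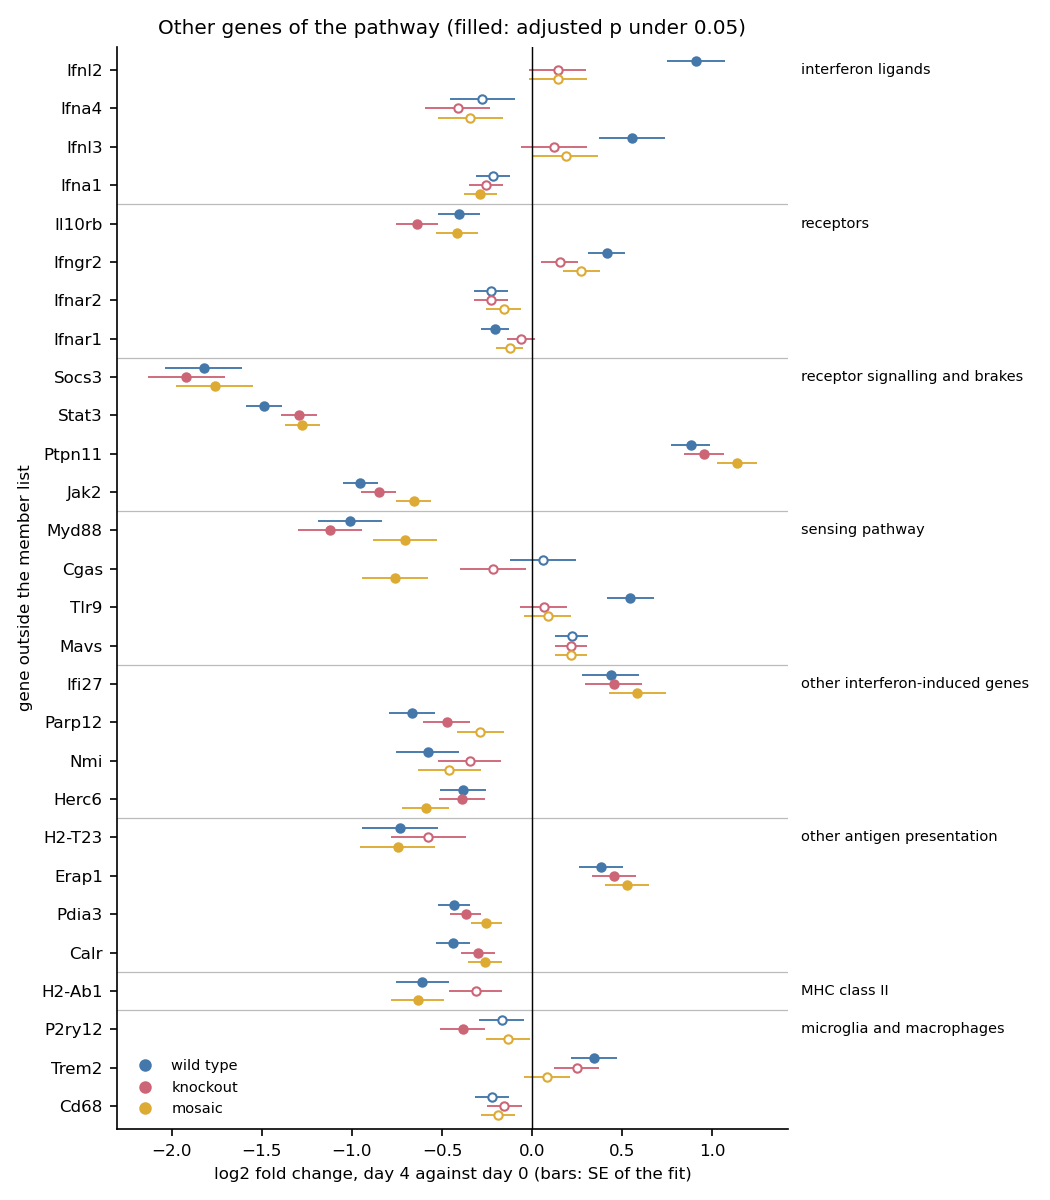
Log2 fold change of day 4 against day 0 for the named pathway genes outside the member list and for 3 microglia markers, in wild type (blue), knockout (red) and mosaic (yellow) cultures, with bars for the standard error of the limma fit and filled points for an adjusted p under 0.05. Socs3 and Stat3 lie below -1 in all 3 cultures and Ptpn11 near 1.

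Microglia and macrophages express many interferon-induced and class I genes, so their markers are given beside the falls. Of 14 listed, 13 had a probe set and 12 passed the filter; Ptprc (CD45) did not. On average 1 rose and 2 fell, with Trem2 at 0.22, P2ry12 at -0.23 and Cd68 at -0.19. The mean level over the 12 ranged over arrays from 4.60 to 4.76 in wild type, 4.78 to 4.82 in knockout and 4.72 to 4.86 in mosaic cultures at day 0, and from 4.79 to 4.91, 4.74 to 4.86 and 4.67 to 4.83 at day 4. In wild type cultures the day 4 arrays lay above those of day 0, while in knockout and mosaic cultures the days overlapped. Of 6 endothelial markers 0 were called on average, and 1 of 3 tested lymphocyte markers rose.

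The markers of neural cells differed between the days in every culture. The mean over 8 neural stem markers ran over arrays at 10.39 to 10.44 at day 0 and 9.81 to 9.87 at day 4 in wild type, 10.37 to 10.49 at day 0 and 9.84 to 9.88 at day 4 in knockout and 10.32 to 10.42 at day 0 and 9.67 to 9.85 at day 4 in mosaic arrays. The mean over 5 oligodendrocyte markers ran at 5.75 to 6.03 at day 0 and 8.97 to 9.54 at day 4, 5.64 to 6.06 at day 0 and 8.94 to 9.43 at day 4 and 5.49 to 5.91 at day 0 and 9.13 to 9.54 at day 4 in the same order. Of 6 astrocyte markers 4 rose and 2 fell, and of 6 neuronal markers 4 rose, in each culture. Among the neural stem markers, Slc1a3, a glutamate transporter, rose in each culture, at 0.39 (SE 0.05, adjusted p = 8.66e-06) on average, and the RNA-binding protein gene Msi1 rose in knockout cultures, at 0.30 (SE 0.11, adjusted p = 0.0464), and on average, at 0.17 (SE 0.06, adjusted p = 0.0288). Both were named after their values were seen. The mean over 5 tested fibroblast and meningeal markers ran at 4.79 to 4.94 at day 0 and 5.50 to 5.60 at day 4 in wild type, 4.98 to 5.04 and 5.28 to 5.50 in knockout and 4.92 to 5.05 and 5.35 to 5.42 in mosaic arrays, so that day 4 lay above day 0 in each culture. Of these 5 markers 2 rose in the wild type, 1 rose in each of the others and 1 on average, while 0 fell. Pdgfrb, a growth factor receptor of mesenchymal and mural cells, rose in each, at 2.15 (SE 0.13, adjusted p = 6.23e-10) on average. In knockout cultures Col1a1 (5.56 to 5.49), Col1a2 (5.10 to 4.97) and Col3a1 (5.36 to 5.09) were lower at day 4, and Dcn was higher (3.72 to 3.80). Mosaic Col1a1 (5.63 to 5.49) and Col3a1 (5.21 to 5.19) were lower, with Col1a2 (4.92 to 4.93) and Dcn (3.76 to 3.77) nearly level. In these 2 cultures Pdgfrb alone carried the rise of the mean, while every group mean was higher in wild type. The collagen genes and Dcn were named after their values were seen. The part of these shifts in the falls of Ifitm3, Gbp7, Ifih1, Ddx58 and the other members was not tested.

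Over the 465 pairs of members, the deviations from the group means over the 18 arrays had a median correlation of 0.015, and 12 pairs lay over 0.5. These values are a description, since the members share their arrays. The share of pairs over 0.5 among all genes tested was not computed, so the 12 pairs are not read as co-variation. The median deviation of the 31 genes from their group mean ran over the 18 arrays from -0.11, on knockout day 0 replicate 1, where 10 of 31 lay above the mean, to 0.09, on knockout day 4 replicate 3, where 22 of 31 did. Over all genes tested these arrays had medians of 0.00, with 50.8% and 50% of genes above. The median residual SD of the members was 0.186, against 0.158 over all genes tested, a comparison that was not tested. The knockout count of called members lay between 8 and 12 whichever single array was left out, against 11 with all. Over all genes tested, the knockout count lay between 4237 and 5322 in these fits, against 5211 with all.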

How the data were processed

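Total RNA of 18 samples was measured on 1 array each. The deposited table holds 1 log2 expression value for each probe set and array, a scale inferred from its range of 0.722 to 13.97; the log base, background correction and normalization are not stated in the sources used here. Of 41345 probe sets, 23521 had 1 platform symbol, 1814 several and 16010 none, and a gene with several was read from the one with the highest mean. Genes entered the test if their value exceeded the array's 25th percentile on 3 or more arrays. Log2 values were fitted with limma 3.58.1 in R 4.3.3 (lmFit, group means of all 18 arrays, eBayes), with Benjamini-Hochberg adjustment over 19016 genes and calls at an adjusted p under 0.05. The fit was tested on simulated data. The median standard error was 0.126 between groups, 0.178 for a difference of differences and 0.073 for the average of the cultures; the number of arrays limits this precision. Alternatives were quantile normalization, a common array median, other filters, probe set means, the replicate block, variance trend, array weights, each array left out, only the groups compared, and an adjusted p under 0.01. Promoters came from the RefSeq table (build GRCm38.p6). All 35 members could be named; of each other list, up to 4 genes called in the average with the largest change there were named. The members and lists were chosen with earlier results of these data known. No protein sequences were used, and probe cross-hybridisation was not assessed.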

Additional observations from a re-analysis of the deposited data

Results flagged for a closer look

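Ifi35 had values on opposite sides of 0 in 2 cultures, with no overlap of the days in either. The log2 fold change of day 4 against day 0 was 0.61 in wild type cultures, where all 3 day 4 arrays lay above all 3 day 0 arrays, and -0.17 in mosaic cultures, where all 3 lay below. The wild type value passed (SE 0.13, adjusted p = 0.00173) and the mosaic value did not (SE 0.13, adjusted p = 0.384), both by limma. The difference of the changes was tested in limma and did not pass, at -0.78 (SE 0.18, adjusted p = 0.256). The second probe set of Ifi35 gave 0.05 and -0.18.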

How the results depend on the processing

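No result reversed. The gene values compared under an alternative were those of members in 13 comparisons and of genes picked from the other lists in the day 4 against day 0 comparisons. Of these 16550 values, 16214 kept their side of the threshold with no called value changing sign, 240 lost the call and 96 gained it. A further 325 of the values that kept their side were called in neither setting and changed sign. No member was called between genotypes or in the differences of differences with all arrays, so no value there could lose a call. With only the groups compared, 7 of the knockout genes were called in place of 11. The spread was then estimated from the arrays of those groups alone, and the cause of the lower count was not tested. The share of all genes called in that fit is not given here. Without mosaic day 4 replicate 1, 1 gene (Ddx58) was called in mosaic against wild type at day 4 in place of 0; the cause was not tested. Leaving out each array in turn gave 6 to 9 called members in wild type, 8 to 12 in knockout, 9 to 14 in mosaic cultures, 14 to 16 in the average and 0 to 1 for mosaic against wild type at day 4, and 0 in the other comparisons. Over all genes tested, these fits called 5046 to 6546 in wild type, 4237 to 5322 in knockout and 4129 to 5059 in mosaic cultures. They called 8254 to 8674 in the average and 0 to 256 for mosaic against wild type at day 4. Quantile normalization took the wild type calls over all genes from 3280 higher and 3106 lower to 4092 and 2556, and those of the members from 2 and 6 to 2 and 5. Replicate numbers were not used to pair arrays in the main fit, and whether same-numbered arrays share a source was not tested. Deviations of same-numbered arrays of different groups correlated at -0.146 to 0.165, with a median of 0.026, against -0.011 for arrays of other numbers. Within a culture, day 0 and day 4 arrays of the same number correlated at 0.015 to 0.164, and 9 of 9 day 0 arrays matched their own number best. With the replicate block, 8, 12, 12 and 14 members were called in wild type, knockout, mosaic cultures and the average, and 0 elsewhere. The share of all genes called in that fit is not given here. The block treats a replicate number as shared by all cultures. Pairing of day 0 with day 4 within each culture was not fitted, so these counts do not show its effect. The replicate block took Rtp4 in mosaic cultures out of the calls and brought Tap1 in knockout cultures in. With 3 arrays a group and no detection calls, changes of the size of the standard errors, and low levels such as Mx1, could not be resolved.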
